A study of Mus musculus with 3 samples.

Results

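The genomic neighbourhood of Tsc22d1 on mouse chromosome 14 was examined for binding of Foxd3. The window ran from 76350000 to 77000000 (mm9), 650 kb in all, and every deposited peak that overlapped it was taken. It held 13 of the 3406 peaks listed with the anti-HA antibody and 16 of the 4569 listed with the anti-Flag antibody. The window was chosen on the positions and widths of these peaks, because they crowd there, so the counts, overlaps and widths below describe it and carry no test.

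Foxd3 was profiled by chromatin immunoprecipitation and sequencing in FH-Foxd3 cells. This mouse embryonic stem cell line was derived from LF2 cells by transduction with a pTrip lentivirus and neomycin selection, and it carries an added Foxd3 tagged with Flag and HA at close to the endogenous level. The cells were kept without feeders, in KO-DMEM with 15% FBS and LIF. Of the 3 samples, 1 was precipitated with anti-HA and 1 with anti-Flag. The other was the input genomic DNA, which was not analysed here. Both precipitations share the line, the medium and the tagged protein, and no precipitation from cells without the tag was analysed here. The labels do not say whether the line is a single clone, and the files hold no expression value with which to check the cell type against its markers.

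Foxd3 is a forkhead transcription factor that binds enhancers in pluripotent cells and is best known there and in the neural crest. Tsc22d1 encodes a leucine zipper protein first found as a transcript induced by TGF-beta, and it is made as long and short forms from separate start sites. In the RefSeq annotation of GRCm38.p6 the nearest protein-coding genes before it are Nufip1 (an RNA-binding nuclear protein), Gpalpp1 and Gtf2f2 (a subunit of the general factor TFIIF). Those past it are Serp2 (a stress-associated endoplasmic reticulum protein), Lacc1 and Ccdc122. These names give the order of genes only. The peaks are in mm9 and the annotation is not, so no peak was placed in an exon, an intron, a UTR or a promoter. The 1 gene position used here is the approximate mm9 span of Tsc22d1, about 76.81 to 76.91 Mb.

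RefSeq promoter sequence of Tsc22d1 (GRCm38.p6, plus strand) is shown for reference at a pair of its 5 listed starts, as the 250 bases before the start. The first listed start opens the gene. Starts 4 and 5, not shown, lie farthest along it, with windows at 76503976 to 76504225 and 76504260 to 76504509 in GRCm38.p6. The other start shown, number 3 in order along the gene, is the one whose window holds a forkhead-like word, marked in capitals.
Tsc22d1 start 1, chr14:76414711-76414960: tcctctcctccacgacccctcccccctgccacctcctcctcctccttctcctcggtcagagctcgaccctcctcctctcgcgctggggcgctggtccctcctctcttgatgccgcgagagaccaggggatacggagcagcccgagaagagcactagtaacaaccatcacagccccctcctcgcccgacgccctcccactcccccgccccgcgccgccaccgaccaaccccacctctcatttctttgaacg
Tsc22d1 start 3, chr14:76488186-76488435: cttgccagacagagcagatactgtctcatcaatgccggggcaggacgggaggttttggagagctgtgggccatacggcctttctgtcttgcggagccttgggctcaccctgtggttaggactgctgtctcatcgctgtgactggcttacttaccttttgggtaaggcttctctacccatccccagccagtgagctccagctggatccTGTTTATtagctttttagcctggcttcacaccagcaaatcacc
The forkhead-like words searched, on both strands, differ in their last letters. The word TGTTTAT was found before 1 of the 5 starts of Tsc22d1 and in 4.16% of all 32851 promoter windows of that length. The word TGTTTAC was found before none of the 5 starts and in 3.17% of all windows. The word TGTTTGT was likewise found before none of the 5 and in 5.84% of all windows. At least 1 of these words was present in 12.2% of all windows. The first start lay in GC-rich sequence, with 66.8% G or C and 19 CG dinucleotides, against 54.4% and 5 before start 3. Starts 2 and 5 were richer still, with 73.6% and 29 before start 2 and 74% and 31 before start 5. Start 4 had 46% and 6. A match is a description of these letters. Whether a peak lies at any of these starts was not tested, because the promoter positions and the peaks are on different builds.

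Peaks of both lists crowded the window more than any stretch of its length that was clear of it. The HA list had 20 peaks per Mb in the window (95% exact Poisson interval 10.6 to 34.2), against 1.70 on the rest of chromosome 14 and 1.30 over the rest of all chromosomes. The Flag list had 24.6 per Mb (14.1 to 40.0), against 2.19 and 1.74. Both intervals treat peaks as independent, although many are linked. They are no test against these values, since the window was chosen for its crowding. The window was thus 15.4 times as dense as the rest of the HA list and 14.1 times as dense as the rest of the Flag list. These ratios move with the peaks counted: among the wider 50% of each list they were 23.8 and 26.6, with linked peaks counted once 7.78 and 9.69, and without the 2 close groups of peaks described below 6.39 and 8.58. Sliding a 650 kb stretch from each peak start in turn gave a median of 2 HA peaks and 3 Flag peaks. The highest counts, 16 HA and 17 Flag peaks, came from stretches overlapping the window. No stretch clear of it held as many as its 13 HA or 16 Flag peaks. The fullest of those held 12 HA peaks, on chromosome 13 (97966393 to 98494936) and again on chromosome 14 (99454136 to 99937067), and 14 Flag peaks on chromosome 6 (142551347 to 143166017). Without the 2 close groups, the rest of the window had 8.29 HA and 14.9 Flag peaks per Mb.

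**Figure D1:**
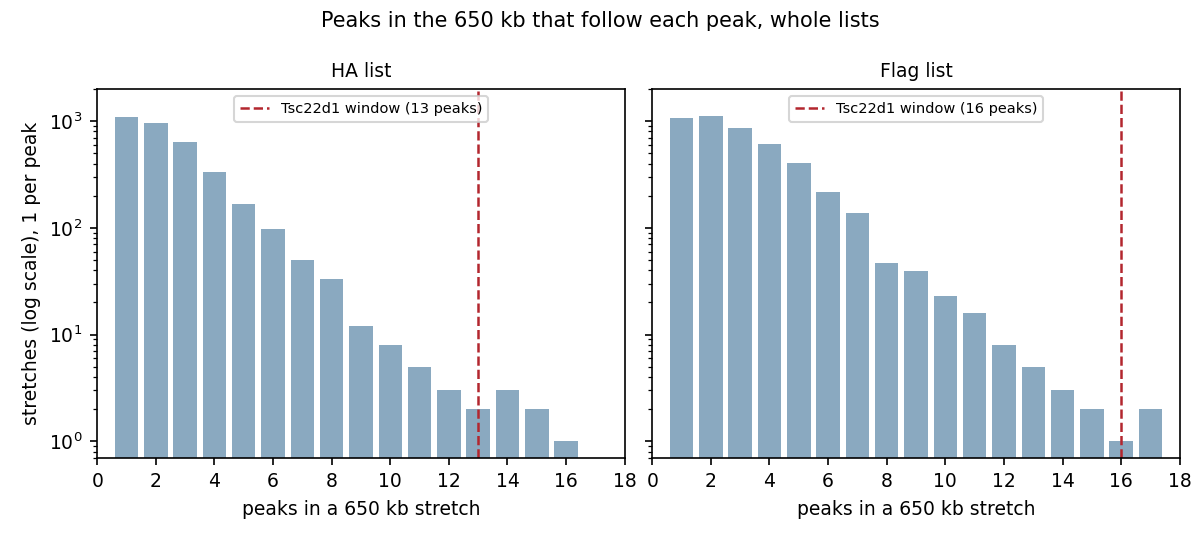
Number of peaks (x axis) in the 650 kb that follow each peak of the HA list (left) and the Flag list (right), with the number of such stretches on a log axis. The dashed lines mark the 13 HA and 16 Flag peaks of the Tsc22d1 window, and the bars at or past those lines are stretches that overlap the window.

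Seen together, the lists marked 17 separate sites. Both antibodies gave a peak at 12 of them, HA alone at 1 and Flag alone at 4. Of the HA peaks in the window, 12 of 13 overlapped a Flag peak by at least 1 bp, or 92.3% (95% Wilson interval 66.7 to 98.6), where the whole HA list had 73.3%. Of the Flag peaks, 12 of 16 overlapped an HA peak, or 75.0% (50.5 to 89.8), where the whole Flag list had 54.7%. These intervals likewise treat the peaks of 1 library as independent and are no test.

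The peaks covered 12.02 kb of the window in HA and 14.9 kb in Flag, with 7.997 kb in common. HA widths ran from 342 to 1868 bp with a median of 785 bp, against 547 bp in the whole list. Flag widths ran from 378 to 2515 bp with a median of 729.5 bp, against 490 bp. Peaks of 1000 bp or more numbered 4 of 13 in HA, where 7.87% of the whole list is that wide, and 3 of 16 in Flag, where 6.63% is.

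**Figure D2:**
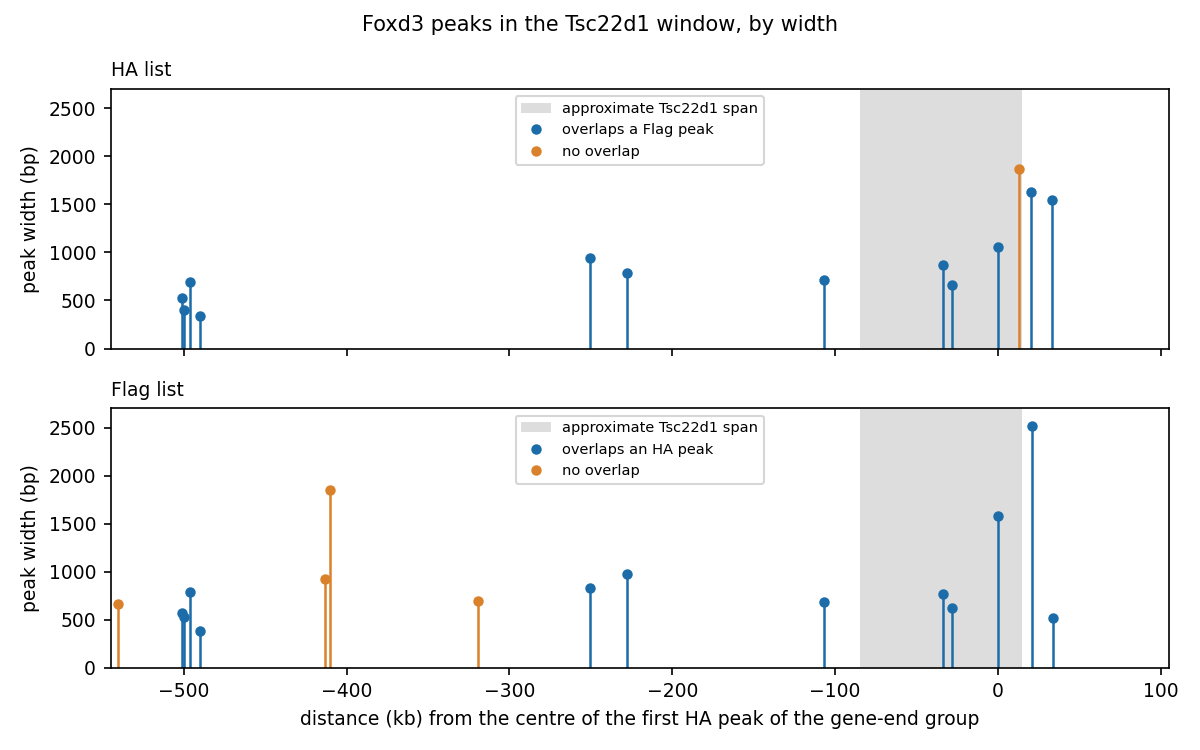
Width in bp (y axis) of each HA peak (top) and Flag peak (bottom) along the 650 kb window. Positions are distances in kb from the centre of the first HA peak of the group at the far end of the approximate Tsc22d1 span. Blue peaks overlap a peak of the other list and orange ones do not, and grey marks the approximate span of Tsc22d1. Peaks of less than 1000 bp pack together at the far left, and the widest HA peaks lie at the end of the grey span and just past it.

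The first group was small and compact, and both antibodies listed the same 4 sites. Its 8 peaks lay within 11.5 kb, from 76393425 to 76404881. It stood 489 kb before the second group, and no other shared site of the window lay as far before Tsc22d1. The first site was 528 bp wide in HA (76393425 to 76393952) and 568 bp in Flag (76393459 to 76394026). The second was 396 bp in HA (76395050 to 76395445) and 534 bp in Flag (76395037 to 76395570), 1.10 kb past the first in HA. The third was the widest, with 690 bp in HA (76398208 to 76398897) and 793 bp in Flag (76398429 to 76399221). The fourth and narrowest was 342 bp in HA (76404540 to 76404881) and 378 bp in Flag (76404461 to 76404838), beyond a gap of 5.64 kb in HA. At each of the 4 sites the Flag peak was the wider, by 36 to 138 bp. In the whole lists it was the wider at 1200 of 2474 pairs. None of the 8 peaks reached 1000 bp. Only 9.07% of the HA list was narrower than the fourth site, while 71.9% was narrower than the third. In HA the group thus mixed narrow and ordinary peaks. In Flag 26.7% of the list was narrower than the fourth site, and 58.0% to 84.4% was narrower than the other sites. The median Flag width of the group was 551 bp, against 490 bp in the whole Flag list.

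The second group was looser and made of wide peaks. It spanned 35.3 kb, from 76893933 to 76929210, and began inside the approximate span of Tsc22d1 and ended past it. The name gene end refers to the far end of that approximate span and does not mean a place far from every start. Among the listed starts, 4 and 5 lie farthest along the gene, so toward that same end. How far the group lies from any listed start, starts 4 and 5 included, was not tested, because the builds differ. Its first site was 1057 bp wide in HA (76894425 to 76895481) and 1579 bp in Flag (76893933 to 76895511), and the HA peak lay wholly inside the Flag peak. The next was listed with HA only. That peak, at 76906971 to 76908838, was 1868 bp wide, the widest HA peak of the window and rank 8 of 3406 by width. No Flag peak lay nearer to it than 5.87 kb. The third site was 1624 bp in HA (76914302 to 76915925) and 2515 bp in Flag (76914709 to 76917223). Its Flag peak ranked 4 of 4569 by width and its HA peak 20 of 3406. The fourth site was 1545 bp in HA (76927666 to 76929210) but 515 bp in Flag (76928515 to 76929029), which covered 33.3% of the HA peak.

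The 2 groups did not overlap in HA width. All 4 HA peaks of the second group, at 1057 to 1868 bp, were wider than all 4 of the first, at 342 to 690 bp. In Flag the ranges met, since the 515 bp peak of the fourth site fell among the 378 to 793 bp of the first group, while the other Flag peaks there measured 1579 and 2515 bp. The median HA width was 462 bp in the first group and 1584.5 bp in the second. The centres of the HA and Flag peaks were a median of 58.5 bp apart in the first group and 334 bp in the second. The distances ran from 54 to 272.5 bp in the first and from 231 to 852.5 bp in the second. These are 4 and 3 pairs, and the ranges meet.

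**Figure D3:**
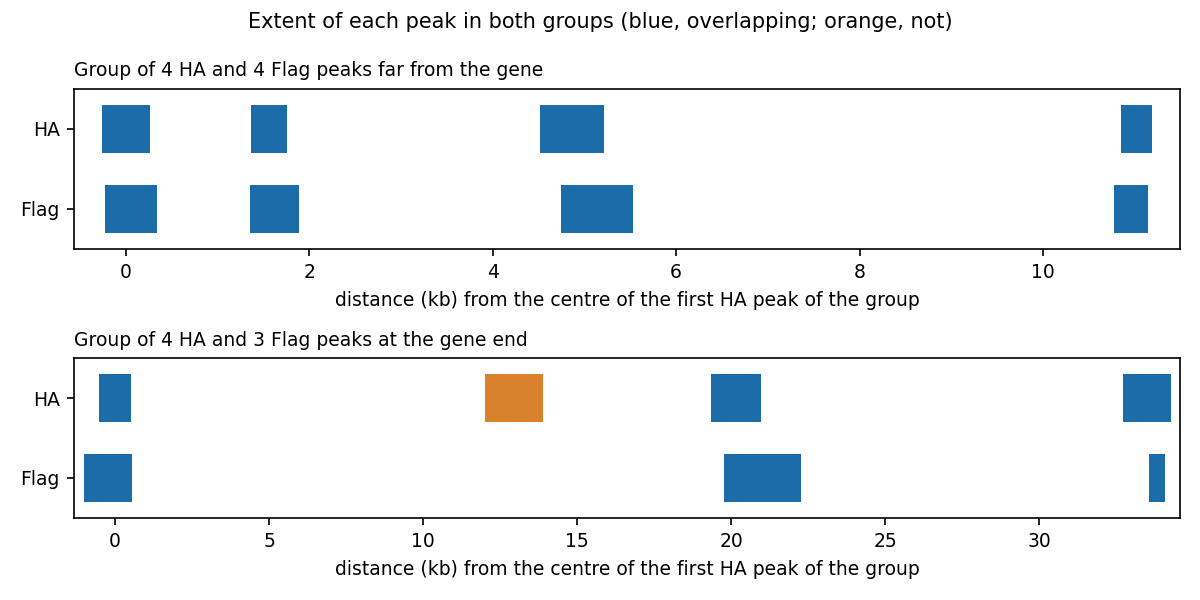
Extent of every peak, to scale, in the group far from Tsc22d1 (top) and the group at the far end of its approximate span (bottom). Distances are in kb from the centre of the first HA peak of each group. Blue boxes overlap a peak of the other antibody, and the orange box is the 1868 bp peak listed with HA only.

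Linking peaks of both lists less than 12500 bp apart gave 4913 groups and single sites over the genome. In it, 3.79% of HA peaks and 3.63% of Flag peaks fell in a group with 3 or more peaks of their own list, where the window had 8 of 13 and 7 of 16. No other group had exactly 4 HA and 4 Flag peaks, and 6 others held 8 or more peaks. None of those 6 was as short as the first group. In 10 groups, the second group of the window among them, the numbers differed from these by 1 peak in all. The 3 of them nearest in span lay on chromosome 6 (122712428 to 122721034, 3 HA and 4 Flag peaks) and chromosome 8 (67557209 to 67572087 and 28346466 to 28361671, 4 HA and 3 Flag peaks each). For the second group, 4 others had the same 4 HA and 3 Flag peaks. The 3 nearest in span were on chromosome 6 (34124607 to 34142106), chromosome 9 (78207369 to 78223917) and chromosome 8 (28346466 to 28361671). Their spans were 15.2 to 17.5 kb and their median HA widths 639 to 706 bp. Of the 14 other groups with 7 or more peaks, the first group among them, none had a median HA width as large as 1584.5 bp.

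Between and around the groups, 5 more sites were listed with both antibodies. At 76643810 to 76644751 the HA peak was 942 bp wide, and the Flag peak (76643853 to 76644686) was 834 bp and lay wholly inside it. At 76666651 to 76667435 the HA peak was 785 bp and lay wholly inside a 974 bp Flag peak (76666565 to 76667538). That site came at line 61 of the HA file and line 172 of the Flag file, earlier than any other peak of the window in either. The files do not say what their order means. Line order did not simply follow width: the 1868 bp HA-only peak came at line 2456 and the 1545 bp HA peak at line 284. At 76787734 to 76788451 the HA peak was 718 bp, beside a Flag peak of 680 bp (76787617 to 76788296). This is the shared site closest before the approximate start of Tsc22d1.

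A close pair of sites lay inside the approximate span of the gene. The HA peak at 76860971 to 76861836 was 866 bp and the Flag peak (76860984 to 76861746) was 763 bp. The HA peak at 76866628 to 76867286 was 659 bp and the Flag peak (76866682 to 76867300) was 619 bp, 4.79 kb on in HA. With the first site and the HA-only site of the second group, 4 HA and 3 Flag peaks fell wholly inside the span. Its ends are approximate, and the HA-only peak ends close to the far one.

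Over the 12 shared sites the centres of the HA and Flag peaks were a median of 58.5 bp apart, against 50.5 bp over 2474 pairs in the whole lists. They were within 100 bp at 7 of the 12 sites, or 58.3%, against 76.3% of the pairs in the whole lists. All 3 shared sites of the second group were farther apart than that. One peak lay wholly inside the other at 6 of 12 sites, or 50%, near the 50.9% of the whole lists. The Flag peak was the wider at 7 sites and the HA peak at 5. In the whole lists the Flag peak was the wider at 1200 of the 2474 pairs and the HA peak at 1269. The Flag peak was wider at 4 of 4 sites in the first group, and at 1 of 5 among the sites outside both groups.

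**Figure D4:**
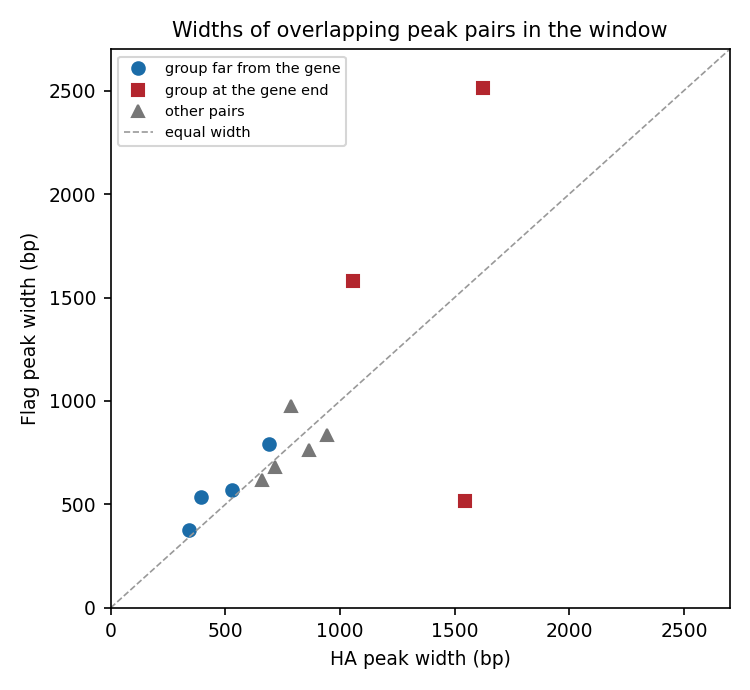
Width in bp of the HA peak (x axis) and the Flag peak (y axis) at the 12 sites of the window listed with both antibodies, with a dashed line of equal width. Sites outside the group at the gene end lie close to the line, between 342 and 974 bp, and the 3 sites of that group lie far from it, at 1057 and 1579, 1624 and 2515, and 1545 and 515 bp.

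The 4 peaks listed with Flag only all lay before the shared site at 76643810, far from Tsc22d1. They measured 660 bp (76354466 to 76355125), 922 bp (76480994 to 76481915), 1854 bp (76483937 to 76485790) and 696 bp (76575505 to 76576200). The nearest HA peak was 38.3 kb from the first and 67.6 to 79.1 kb from the others. The 1854 bp peak ranked 22 of 4569 by width and lay 2.02 kb from the 922 bp peak. The last 3 of the 4 fell in a stretch of 239 kb, from 76404882 to 76643809, with no HA peak. From that shared site to the end of the window, every Flag peak overlapped an HA peak, and the HA-only peak was the 1 site without both. Absence from a list is not absence of binding, because a site just under the calling threshold of a library, which is not stated, would not be listed.

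The edges of the window do not bound the crowding on its far side. The nearest HA peak outside, 435 bp wide at 77000263 to 77000697, began 263 bp past the end, and the nearest Flag peak, 603 bp wide at 77000134 to 77000736, began 134 bp past it. These overlap each other. Within 100 kb past the end there were 5 HA and 3 Flag peaks, among them a 1901 bp HA peak at 77014732 to 77016632 that overlapped a 544 bp Flag peak. The HA peaks there at 77024072 to 77025119 and 77060665 to 77061219 overlapped no Flag peak. The other HA peaks and all 3 Flag peaks were shared. On the near side the closest peaks outside were 582 kb away in HA and 85.7 kb away in Flag. Just inside, the first peaks were the 660 bp Flag-only peak and the 528 bp HA peak of the first group, and the last were the 1545 bp HA and 515 bp Flag peaks of the second.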

How the data were processed

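Each antibody had 1 library, and the deposited peak lists give chromosome, start and end in mm9 (build per the submitters' processing notes), with no count, height or p-value. Which aligner, peak caller and threshold were used, and how the input entered, is not given in the sources used here. Width stands in for a peak value but is no measure of signal strength, and sequencing depth is unknown. Starts were converted to 1-based positions. Peaks were shared when they overlapped by 1 bp or more, which gave the same counts in bedtools 2.31.1, and were linked into groups when less than 12500 bp apart, over both lists at once. Chromosome lengths were taken as the largest peak end. Intervals cover counting error only. Every peak of the window is named. The window, groups and lists were chosen with earlier results of these data known, so no test was made. On simulated lists 500 of 500 overlapping pairs and 500 of 500 groups were recovered. Software was matplotlib 3.10.9, scipy 1.17.1, numpy 2.4.6 and Python 3.11.15. Alternatives varied the overlap, the linking distance and the peaks kept.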

Additional observations from a re-analysis of the deposited data

How the results depend on the processing

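The count of 12 shared sites was 10 when 50% of each peak had to overlap and 12 when 50% of the shorter peak had to. It fell to 7 when centres had to lie within 100 bp and to 5 among the first 50% of the lines of each file, in HA and in Flag alike. Those first lines kept 9 HA and 8 Flag peaks of the window. Among the wider 50% of each list the count was 9, with 10 HA and 15 Flag peaks kept. The shortened lists hold fewer candidate partners by construction. The compact group far from the gene kept 1 HA peak among the wider 50% of each list, since its other HA peaks are narrower than the list's median. The group at the gene end depends on the linking distance: at 5 kb it broke up into single sites of at most 1 HA and 1 Flag peak, while at 25 kb it held the same numbers as at 12500 bp. With each list linked on its own, a setting chosen after seeing the data, it held 4 HA but 2 Flag peaks, because 19.2 kb separate the first Flag peak from the next. HA density was 8.29 per Mb without the 2 groups and 9.23 with linked peaks counted once, against 20 in the window as a whole. The other alternatives stayed within 1.5 times the count, or inside the interval of the density or median width. The ratio of each density to the rest of its list moved more, to 6.39 to 23.8 in HA and 8.58 to 26.6 in Flag. Leaving out a replicate was not possible. No paired analysis was possible because only 1 library per antibody was analysed. Depth is unknown, so no limit can be set on signal under the authors' threshold.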
